A study of Mus musculus with 12 samples.

Results

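The level of a gene in cells that carry 2 mutant alleles can equal the sum of what each allele does alone, or depart from it. This departure was measured for every autosomal gene of mouse bone marrow progenitors that carried an inv(3) allele, an Sf3b1 K700E allele, both, or neither. For each gene it is the log2 effect of Sf3b1 K700E on the inv(3) background (double minus inv(3)) minus its log2 effect without inv(3) (Sf3b1 K700E minus control), which statisticians call the interaction. A value of 0 means that the effects add on the log2 scale, so that fold changes multiply. A positive value means that the double group lay above that sum, and a negative value that it lay below it. The tables list 24411 genes, of which 23248 are autosomal, and 13252 autosomal genes passed a filter on low counts and were tested. The other 9996 autosomal genes had too few counts for a test.

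The inv(3) rearrangement of myeloid leukemia brings an enhancer of GATA2 close to the gene for EVI1, a zinc-finger transcription factor encoded in the mouse by Mecom and active in hematopoietic stem cells. SF3B1 is a subunit of the U2 small nuclear ribonucleoprotein that recognises the branch point during splicing, and the K700E substitution makes the spliceosome use cryptic 3′ splice sites. Both mutations occur together in patients with inv(3) leukemia. Lineage-negative, cKit-positive marrow holds stem cells and the progenitors of the myeloid, erythroid and megakaryocytic lines, with few mature cells.

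All donors were CD45.2-positive C57BL/6 mice with the Mx1-Cre transgene, in which an interferon-inducible promoter drives Cre in blood cells and in other cells that respond to interferon. The control donors carried Mx1-Cre alone. The inv(3) donors carried Mx1-Cre with inv(3), the Sf3b1 K700E donors Mx1-Cre with 1 mutant and 1 wild-type Sf3b1 allele, and the double donors Mx1-Cre with both. Each marrow was mixed with wild-type CD45.1-positive support marrow and given to irradiated CD45.1-positive recipients, and every group received 3 doses of 20 mg/kg pIpC, the interferon inducer that switches on Cre. Marrow was taken 6 months later, with 3 libraries in each of the 4 groups. The sources used here do not give the age of the mice, the construction of the inv(3) allele or whether donor cells were separated from host and support cells. The labels do not say that the 3 libraries of a group came from separate recipients, so p-values measure the spread between these libraries, which may be technical.

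Library totals ran from 73074797 to 86555638 expected counts. Kit, which defines the gate, lay between 420.4 and 468.1 CPM (counts relative to the scaled library total) over all 12 libraries. The groups differed in other respects that bear on the sum. The inv(3) libraries held 4 to 8 counts in all of 4 Y-linked genes, where the other 9 libraries held 19200 to 25380, and they were the ones with Xist at 1794 to 2095 CPM. Xist stood at 77.11 to 209.7 CPM in the Sf3b1 K700E libraries and at 23.17 to 40.46 CPM in control and double libraries. The interaction and these sex-linked differences between the groups cannot be told apart. Sex-linked genes were left out for this reason, but the limit holds for autosomal genes as well. The summed level of 24 macrophage genes ran from 1286 to 1710 CPM in the Sf3b1 K700E libraries and was higher there than in every other library. It was 1079 to 1120 CPM in control, 785.9 to 897.8 with inv(3) and 896.1 to 922.4 with both alleles. None of the 24 was at 0 in any group. In bulk samples, fewer cells of a type and less RNA per cell cannot be told apart.

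Of the 13252 genes, 104 (0.785%) departed from the sum, 50 above it (0.377%) and 54 below it (0.407%), in edgeR's quasi-likelihood test at a Benjamini-Hochberg adjusted p under 0.05. The single steps moved far more genes. The share that passed was 38.5% for inv(3) against control, 8.94% for Sf3b1 K700E against control, 22.4% for double against inv(3) and 49.2% for double against Sf3b1 K700E. At an unadjusted p under 0.05 the interaction held 1293 genes above the sum and 860 below it. This balance varied between fits. It was 1132 and 1020 with RLE scaling, 1358 and 813 with limma-voom, and 802 and 895 without control replicate 3. The last gene inside the limit was D17H6S56E-5 (adjusted p = 0.0491, edgeR) and the first outside it was Optn (adjusted p = 0.0505, edgeR).

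Among the genes that passed, departures below the sum were the larger ones. Their median was −1.27 log2, and 30 of the 54 were at least 1 log2 unit in size, against a median of 0.58 and 13 of 50 above the sum. Genes below the sum were also less abundant, with a median level of 16.1 CPM against 57.2 CPM above the sum. A gene with few counts needs a larger departure to pass, so size and abundance cannot be told apart here. In 47 of the 50 genes above the sum the double group had the highest mean of the 4 groups, and in 41 all 3 double libraries lay above the other 9. In 42 of the 54 genes below the sum the double group had the lowest mean, and in 29 all 3 double libraries lay below the other 9. The Sf3b1 K700E libraries stood above the other 9 in 27 of these 54 genes. The genes were picked by a contrast that includes these groups, so such positions follow in part from the choice. The same counts over all genes were not taken. By a stricter rule, a gap wider than the range of the other 9, double stood high in 19 tested genes, of which 3 departed. By that rule it stood low in 15, of which 4 departed. All 104 departures had the same sign when effects were summed on the linear CPM scale in place of the log2 scale. On that scale 31 of the 50 and 30 of the 54 passed.

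Most abundant genes showed an effect close to the sum. The 95% interval of the interaction lay within 0.5 log2 units of 0 in 7830 genes (59.1%), and in 7825 of the 10562 genes with a mean of at least 2 CPM (74.1%). This count includes 17 genes that departed by a small, well-measured amount. For 5335 genes the data neither showed a departure nor held it within 0.5. Among the 1634 genes that inv(3) alone moved by at least 1 log2 unit, only 44 were held within the bound and 21 departed, so for 1569 strongly moved genes additivity was not resolved. The interaction combines 4 group means, and its median standard error of 0.0973 log2 exceeded the 0.0688 of a single step.

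**Figure D1:**
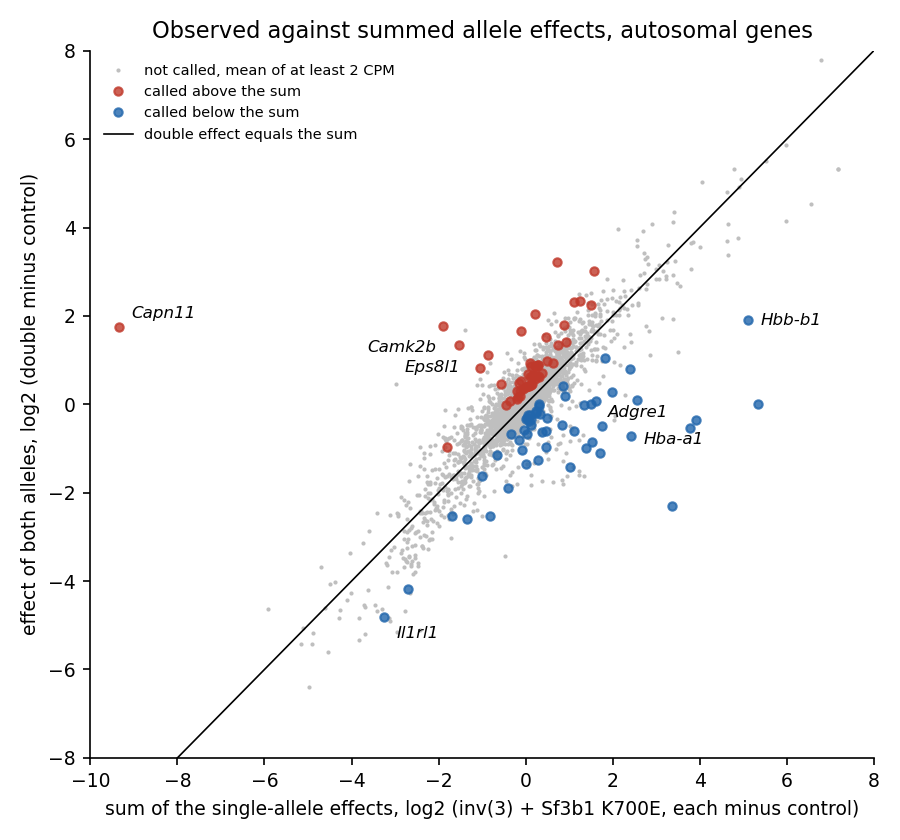
Each point is an autosomal gene with its summed single-allele effects on the x axis and the effect of both alleles together on the y axis, both log2 against control. Genes called above the sum are red, genes called below it blue, and 1 called gene lies outside the plotted range. Hba-a1, Hbb-b1 and Adgre1 lie far below the line of equality, while Camk2b and Eps8l1 lie above it.

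Promoters of some genes that departed are shown with 3 sets of recognition letters of transcription factors of blood cells. The letters AGATAA are bound by GATA factors and form part of the long site of EVI1, and GAGGAAGT is bound by PU.1, the myeloid and macrophage factor. GAAGATGAG is a site of the second zinc-finger domain of EVI1. Each was searched on both strands in 300 bases around the first RefSeq start listed for a gene (GRCm38.p6, 250 bases before to 50 after). Capitals mark a match, and other starts of a gene were not searched. Hba-a1 (chr11:32283422-32283721, plus strand) and Il1rl1 (chr1:40429320-40429619, plus strand) lay below the sum, as did Adgre4 (chr17:55749734-55750033, plus strand). Ggt1 (chr10:75563882-75564181, plus strand) and Capn11 (chr17:45659260-45659559, minus strand) lay above it. The windows of Il1rl1, Ggt1 and Capn11 lie wholly inside the span of the gene and not at its outer start. Hba-a1 and Capn11 were chosen by the size of their departure and held no match. Variants of these letters were not searched, so the lack of a match does not mean the lack of a site. Il1rl1, Adgre4 and Ggt1 were chosen because their promoters held one, so the matches shown do not measure how common the letters are. The promoters of Camk2b, Eps8l1 and Kcnj10, also among the largest departures, held no match and are not shown.
Hba-a1: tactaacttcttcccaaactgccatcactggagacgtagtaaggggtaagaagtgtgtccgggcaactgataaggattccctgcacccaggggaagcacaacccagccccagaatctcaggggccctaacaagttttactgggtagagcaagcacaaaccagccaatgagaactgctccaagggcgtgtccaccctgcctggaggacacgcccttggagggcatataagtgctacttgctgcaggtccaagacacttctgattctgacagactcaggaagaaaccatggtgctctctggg
Il1rl1: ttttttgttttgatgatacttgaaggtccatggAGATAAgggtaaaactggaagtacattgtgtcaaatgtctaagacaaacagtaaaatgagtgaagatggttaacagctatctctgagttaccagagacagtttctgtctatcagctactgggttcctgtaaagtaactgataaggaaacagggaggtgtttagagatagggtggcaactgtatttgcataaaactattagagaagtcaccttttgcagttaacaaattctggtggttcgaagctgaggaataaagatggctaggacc
Adgre4: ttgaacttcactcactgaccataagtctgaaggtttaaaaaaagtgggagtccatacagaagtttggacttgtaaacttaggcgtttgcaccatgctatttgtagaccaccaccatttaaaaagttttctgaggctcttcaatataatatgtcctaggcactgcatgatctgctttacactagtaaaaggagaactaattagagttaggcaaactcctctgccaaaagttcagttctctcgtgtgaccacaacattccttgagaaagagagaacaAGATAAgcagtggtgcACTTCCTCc
Ggt1: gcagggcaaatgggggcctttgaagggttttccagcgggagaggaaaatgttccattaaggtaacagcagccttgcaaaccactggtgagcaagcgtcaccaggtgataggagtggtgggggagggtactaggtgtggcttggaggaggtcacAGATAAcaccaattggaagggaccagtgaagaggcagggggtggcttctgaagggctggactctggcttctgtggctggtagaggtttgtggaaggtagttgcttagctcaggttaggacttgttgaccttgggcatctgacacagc
Capn11: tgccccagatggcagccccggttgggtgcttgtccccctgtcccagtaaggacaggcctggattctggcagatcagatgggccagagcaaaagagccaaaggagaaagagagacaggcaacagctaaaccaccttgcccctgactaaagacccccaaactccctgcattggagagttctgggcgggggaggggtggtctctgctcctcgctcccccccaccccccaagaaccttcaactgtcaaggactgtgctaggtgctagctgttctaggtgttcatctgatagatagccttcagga

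The letters AGATAA stood in 2 of 40 promoters of genes above the sum (5.0%), in 3 of 37 below it (8.11%) and in 680 of all 10550 autosomal promoters in the table (6.45%). GAGGAAGT stood in 0 of 40, in 2 of 37 (5.41%) and in 353 of all (3.35%). GAAGATGAG was in none of the promoters of genes that departed and in 0.284% of all. A match is a description of letters in this window only.

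Globin RNA gave some of the largest departures below the sum. Hba-a1 (chr11:32283672-32284486) encodes an alpha-globin chain of hemoglobin. It measured 8.71, 10.7 and 11.6 CPM in the control libraries, 6.59, 8.52 and 10.9 with inv(3), 67.7, 86.7 and 45.7 in Sf3b1 K700E and 6.32, 6.04 and 6.53 in double libraries. The 3 Sf3b1 K700E libraries were high and overlapped with no other group, and the double libraries lay below every library of the other groups. The summed effects would have placed the double group at 55.7 CPM, and the departure was −3.15 ± 0.32 log2 (SE, n = 3 per group, edgeR adjusted p = 0.00104). The beta-globin gene Hbb-b1 averaged 3.93 ± 1.47 CPM (SD) in control, 9.69 ± 3.01 with inv(3), 55.6 ± 19.8 in Sf3b1 K700E and 14.7 ± 5.58 in double libraries. Its departure was −3.22 ± 0.53 log2 (SE, edgeR adjusted p = 0.0232), and both single alleles raised it (1.30 log2 for inv(3), 3.82 log2 for Sf3b1 K700E). The second alpha-globin gene, Hba-a2, had no count in the control libraries and 248 counts in the 3 double libraries, so no fold is given. Near-identical globin copies share reads, and the split between Hba-a1 and Hba-a2 is uncertain.

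Few other erythroid genes passed. Of the list's 31 tested genes these 3 departed below the sum and none above it, at an unadjusted p under 0.05 the count was 6 below and 0 above, and the median departure was −0.40 log2 against 0.02 for all genes. The list's summed level was 1721 to 1905 CPM in Sf3b1 K700E libraries, above 1466 to 1534 in control, and 637.7 to 887.4 with inv(3) against 780.7 to 943.3 in double libraries. Macrophage RNA was highest in the same 3 Sf3b1 K700E libraries, at 1459, 1710 and 1286 CPM for replicates 1 to 3, where Hba-a1 stood at 67.7, 86.7 and 45.7 CPM. Xist ran in the same order there, at 190.8, 209.7 and 77.11 CPM. A link between these levels was not tested. With the macrophage level as a covariate the departure of Hba-a1 was −2.56 log2 and still passed (edgeR adjusted p = 0.0218), while that of Hbb-b1 was −2.32 log2 and did not (edgeR adjusted p = 0.193). The call for Hbb-b1 also ended in 5 of the 12 fits that left out a library, and that for Hba-a1 in none.

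Macrophage genes showed the lowest median of all 31 lists. Of 23 tested members 4 departed below the sum and none above it, and at an unadjusted p under 0.05 the count was 19 below and 0 above. The median departure was −1.86 log2. DESeq2 called 14 of the 23 below the sum, and limma-voom 1. Sf3b1 K700E raised 17 of the 23 on its own, where it raised 3.97% of all genes. On the inv(3) background it raised 2 and lowered 3, where 13.2% and 9.24% of all genes rose and fell. Adgre1 (chr17:57358581-57483529), the F4/80 surface receptor of macrophages, measured 11.8, 12.6 and 12.6 CPM in control, 18.3, 18.4 and 18.2 with inv(3), 22.1, 29.2 and 19.4 in Sf3b1 K700E and 11.8, 13.6 and 11.6 in double libraries. Each allele alone raised it (0.57 log2 for inv(3), 0.93 log2 for Sf3b1 K700E) and the double libraries overlapped with control. The sum stood at 34.9 CPM, against a double mean of 12.3 CPM, and the departure was −1.51 ± 0.17 log2 (SE, edgeR adjusted p = 0.00204).

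Mrc1 (chr2:14229414-14332023), the macrophage mannose receptor, measured 10.1, 12.2 and 14.4 CPM in control, 12.4, 10.4 and 9.76 with inv(3), 43.5, 64.8 and 31.5 in Sf3b1 K700E and 6.03, 11.5 and 8.61 in double libraries. The Sf3b1 K700E libraries alone were high, and the other 3 groups overlapped. The departure was −2.24 ± 0.39 log2 (SE, edgeR adjusted p = 0.0284). Lpl, lipoprotein lipase, showed the same order with inv(3) lowering it, from a mean of 9.37 ± 0.76 CPM (SD) in control to 3.16 ± 0.461, against 21.1 ± 6.33 in Sf3b1 K700E and 2.54 ± 0.309 in double libraries. Its departure was −1.49 ± 0.28 log2 (SE, edgeR adjusted p = 0.0352). The fourth member was Hpgd, which breaks down prostaglandins (−2.37 log2, named after its values were seen). C1qa, a chain of complement C1q, stood at 26.5 ± 9.2 CPM (SD) in Sf3b1 K700E and 1.89 ± 0.681 in double libraries, with a departure of −2.75 ± 0.61 log2 that did not pass (SE, edgeR adjusted p = 0.0671). Axl did not pass either (−1.86 log2, edgeR adjusted p = 0.0731), nor did Mertk (−2.50 log2, edgeR adjusted p = 0.105), both receptors for the uptake of dying cells.

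Several other genes among the 10 largest departures below the sum were likewise highest in the Sf3b1 K700E libraries. Kcnj10, the inward-rectifier potassium channel Kir4.1, averaged 1.78 ± 0.465 CPM (SD) in control, 1.03 ± 0.18 with inv(3), 10.2 ± 3.3 in Sf3b1 K700E and 0.834 ± 0.269 in double libraries. Its departure was −2.81 ± 0.43 log2 (SE, edgeR adjusted p = 0.0152). Sdc3, a heparan sulfate proteoglycan of the cell surface, departed by −2.38 ± 0.46 log2 (SE, edgeR adjusted p = 0.0449). Adgre4, an adhesion receptor related to F4/80, and Abcg3, a member of the ABCG transporter family, both departed by −1.71 log2, and in both the 3 Sf3b1 K700E libraries lay above the other 9. The calls for Sdc3, Adgre4, Abcg3 and Cbr2 each ended in 9 of the 12 fits that left out a library. Cbr2, a carbonyl reductase, stood at 2.02 ± 0.861 CPM (SD) in Sf3b1 K700E and at 0.102 to 0.13 CPM in the means of the other groups. With the summed macrophage level as a covariate the departures of Kcnj10 (−2.03 log2), Sdc3 (−1.81 log2), Mrc1 (−1.48 log2), Adgre4 (−1.15 log2) and Lpl (−0.75 log2) no longer passed, and Adgre1 did (−1.13 log2, edgeR adjusted p = 0.0346). Mrc1, Lpl and Adgre1 are part of that level themselves.

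With the macrophage level as a covariate 6 genes passed above and 7 below the sum, of which 4 and 6 were among the 104. Those were Hba-a1, Il1rl1, Adgre1, Wdfy1, Tdrkh and Cd52 below it and Gbp2, Zfp69, Fads3 and Capn11 above it, with Tdrkh and Cd52 named after their values were seen. All 104 kept their sign in that fit, and several calls ended with the value about as large as before. Ggt1 stood at 2.50 log2 in both fits, Dlgap5 at −0.30 and −0.31, Camk2b at 2.86 and 2.61, and Eps8l1 at 1.99 and 1.88. Other values moved more, and the median of the macrophage list, whose genes make up the covariate, went from −1.86 to −0.92 log2. The lost calls therefore do not show how much of a departure moved with macrophage RNA.

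A pair of genes of mast cells and basophils fell below the sum in another way, since inv(3) lowered them and Sf3b1 K700E on top of it lowered them again. Il1rl1 (chr1:40404864-40465418), the receptor for interleukin-33 on mast cells and basophils, measured 18.1, 18.2 and 19.7 CPM in control, 1.43, 1.1 and 1.39 with inv(3), 29.5, 27.9 and 26.9 in Sf3b1 K700E and 0.584, 0.637 and 0.766 in double libraries. No 2 groups overlapped. Sf3b1 K700E raised Il1rl1 without inv(3) (0.59 ± 0.09 log2, SE, edgeR adjusted p = 0.00646) and lowered it with inv(3) (−0.99 ± 0.13 log2, SE, edgeR adjusted p = 0.000802). The departure was −1.57 ± 0.16 log2 (SE, edgeR adjusted p = 0.000609) and passed in every fit on the log2 scale. Hdc, histidine decarboxylase, which makes histamine, averaged 271 ± 8.51 CPM (SD) in control, 100 ± 14.2 with inv(3), 227 ± 21.8 in Sf3b1 K700E and 47.1 ± 5.41 in double libraries. Its departure was −0.84 ± 0.15 log2 (SE, edgeR adjusted p = 0.0322), and the call ended in 8 of the 12 fits that left out a library. On the linear CPM scale the departure of Hdc was −9.84 ± 16.1 CPM (SE) and did not pass (limma adjusted p = 0.856). The other 13 tested genes of the mast cell and basophil list did not pass, and the list's median departure was 0.02 log2. Slc18a2, which loads monoamines into granules, had a positive value that missed the limit (0.89 log2, edgeR adjusted p = 0.0978).

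Wdfy1 had the smallest adjusted p among autosomal genes below the sum. It encodes a FYVE-domain protein of early endosomes and lies at chr1:79702262-79776143. It measured 54.9, 51.4 and 52.6 CPM in control, 118, 119 and 111 with inv(3), 81.5, 85.8 and 88.5 with Sf3b1 K700E and 104, 117 and 108 with both alleles. Both alleles raised it alone, the double libraries overlapped with inv(3), and control stood apart as low. The sum stood at 187 CPM, and the departure was −0.77 ± 0.07 log2 (SE, edgeR adjusted p = 0.000376). Dynlt1b, a light chain of the dynein motor, averaged 32.8 ± 1.04 CPM (SD) in control, 42.2 ± 4.01 with inv(3), 35.7 ± 2.13 in Sf3b1 K700E and 26.5 ± 1.6 in double libraries. Its departure was −0.79 ± 0.10 log2 (SE, edgeR adjusted p = 0.0049). Dynlt1 genes are near-identical copies on chromosome 17, so reads could be split among them.

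**Figure D2:**
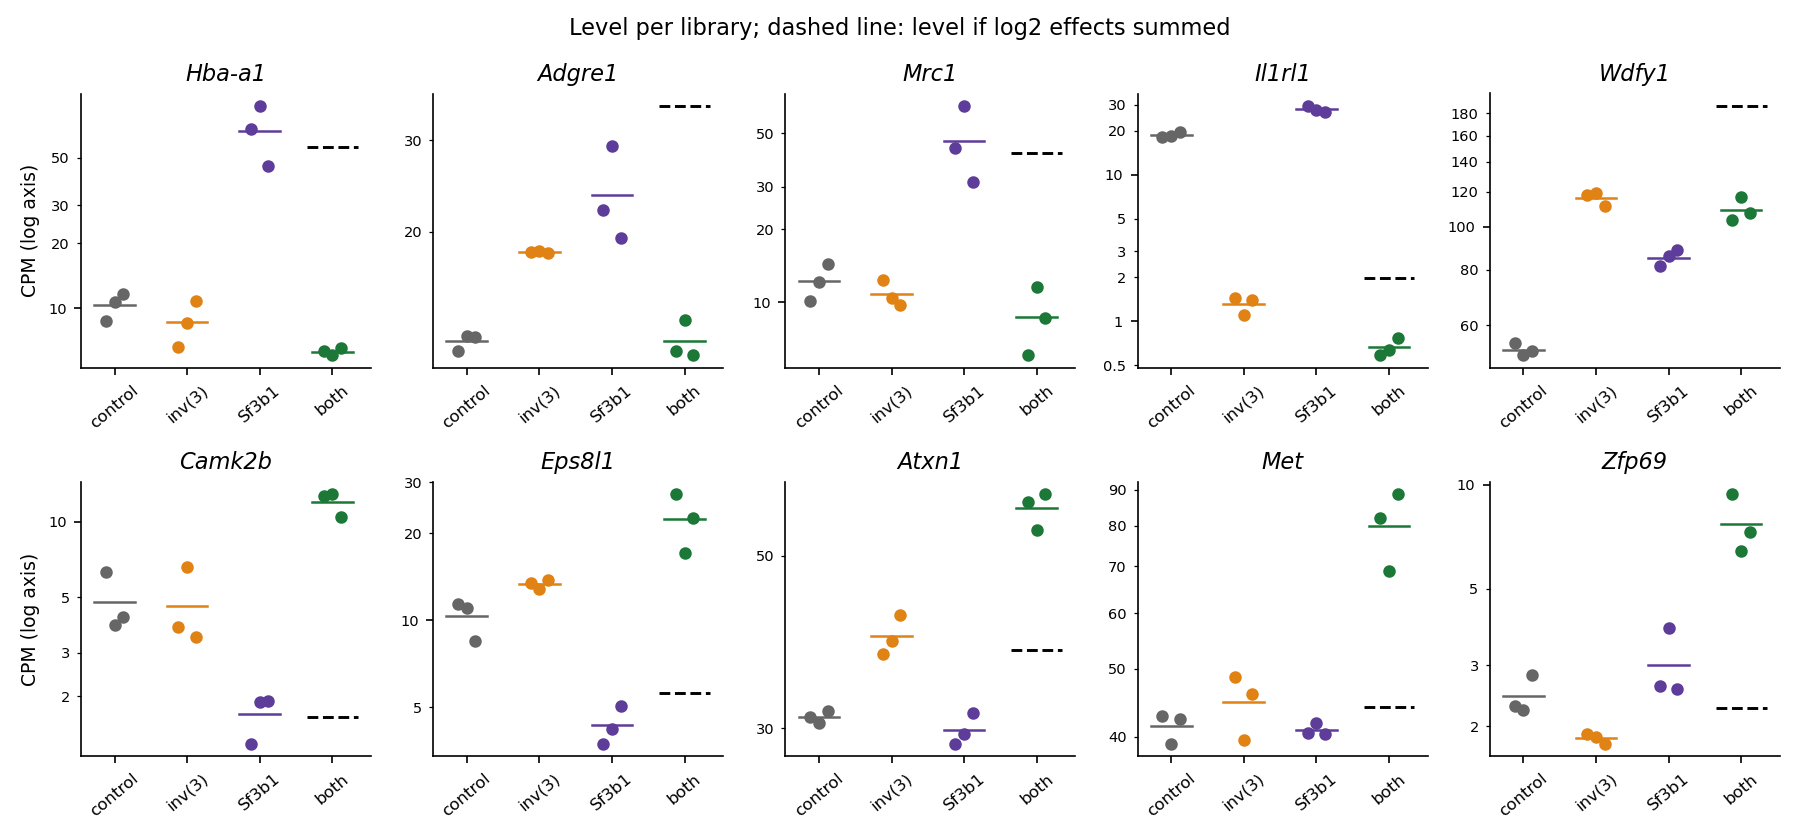
Each panel shows the CPM of 1 gene in the 12 libraries on a log axis, with a line at each group's mean and a dashed line at the double level that the summed log2 effects would give. In the upper row all double libraries lie below the dashed line, in the lower row all lie above it.

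A pair of neutrophil and myeloid genes were high in inv(3) libraries and lower again in double libraries. Camp, the antimicrobial peptide cathelicidin of late neutrophil granules, measured 67.5, 61.2 and 38.5 CPM in control, 161, 265 and 133 with inv(3), 56.7, 109 and 129 in Sf3b1 K700E and 48.9, 59.7 and 71.3 in double libraries. The inv(3) libraries were the highest 3 of the 12. The departure was −2.45 ± 0.48 log2 (SE, edgeR adjusted p = 0.0473), and it ended in 8 of the 12 fits that left out a library. Fgr, a Src-family kinase of myeloid cells, averaged 4.23 ± 0.283 CPM (SD) in control, 14.2 ± 2.32 with inv(3), 6.58 ± 1.12 in Sf3b1 K700E and 7.33 ± 1.71 in double libraries. Its departure was −1.60 ± 0.26 log2 (SE, edgeR adjusted p = 0.0181). Camp was the 1 member of 23 late neutrophil genes that passed. Ngp, another granule protein, had a similar value that did not (−2.33 log2, edgeR adjusted p = 0.129), and Cxcr2, the chemokine receptor of neutrophils, had a positive one (0.76 log2, edgeR adjusted p = 0.123). Grap2, an adaptor protein of immune receptor signalling also known as Gads, was lowest in the double libraries (0.516 ± 0.169 CPM, SD, against 2.96 ± 0.303 in control) and departed by −1.69 ± 0.29 log2 (SE, edgeR adjusted p = 0.0244).

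Genes of G2 and mitosis had small values of 1 sign. The sum held within 0.5 log2 units in 27 of the 28 tested members, where it did in 59.1% of all genes. Of the 28, 3 passed below the sum and none above it, 22 had an unadjusted p under 0.05 below the sum, and all 28 values were negative, against 6059 of all 13252 genes. Their median departure was −0.25 log2 and the 28 values ran from −0.34 to −0.09. Sf3b1 K700E lowered 3 of the 28 without inv(3), with a median effect of −0.07 log2, where it lowered 4.97% of all genes. With inv(3) it lowered 28 of 28, with a median of −0.31 log2, where it lowered 9.24% of all genes. Members of this list are expressed in the same dividing cells, so their values are not independent of each other.

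Bub1b (chr2:118598202-118641592), a kinase of the spindle checkpoint, measured 165, 166 and 169 CPM in control, 176, 176 and 178 with inv(3), 163, 163 and 161 with Sf3b1 K700E and 143, 147 and 136 with both alleles. All 3 double libraries lay below the other 9 and all 3 inv(3) libraries above. The departure was −0.28 ± 0.05 log2 (SE, edgeR adjusted p = 0.034). Cenpf, a kinetochore protein, averaged 93.2 ± 1.93 CPM (SD) in control, 94.4 ± 2.25 with inv(3), 98.4 ± 2.61 in Sf3b1 K700E and 78.9 ± 4.34 in double libraries, a departure of −0.34 ± 0.06 log2 (SE, edgeR adjusted p = 0.0322). Ccnb2, cyclin B2, averaged 97 ± 1.22, 101 ± 4.45, 94.5 ± 2.8 and 78 ± 4.13 CPM (SD) in the same order, a departure of −0.34 ± 0.07 log2 (SE, edgeR adjusted p = 0.0425). Each of these 3 calls ended in 9 or 10 of the 12 fits that left out a library. Of the 28, DESeq2 called 14 below the sum, limma-voom 3 and edgeR with the macrophage covariate 0, where the median departure was −0.26 log2.

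Dlgap5, a spindle protein outside the list, was raised by inv(3) alone and not in double libraries. Its means were 60.9 ± 0.748 CPM (SD) in control, 76.3 ± 2.12 with inv(3), 59.9 ± 0.448 in Sf3b1 K700E and 60.8 ± 1.97 in double libraries, a departure of −0.30 ± 0.05 log2 (SE, edgeR adjusted p = 0.0232). Among genes named after their values were seen, Ska1 (−0.54 log2) and Spc25 (−0.39 log2), which link chromosomes to the spindle, also passed below the sum. None of the 27 tested genes of the S phase list passed. Of these 10 had an unadjusted p under 0.05 below the sum and 0 above it, and the median was −0.12 log2. Ccne2, cyclin E2, had the smallest p of them (−0.36 log2, edgeR adjusted p = 0.111). Outside this list the histone chaperone gene Asf1b (−0.44 log2) and Mcm8 (−0.36 log2), named after their values were seen, passed below the sum. Their calls ended in 5 and 10 of the 12 fits that left out a library.

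**Figure D3:**
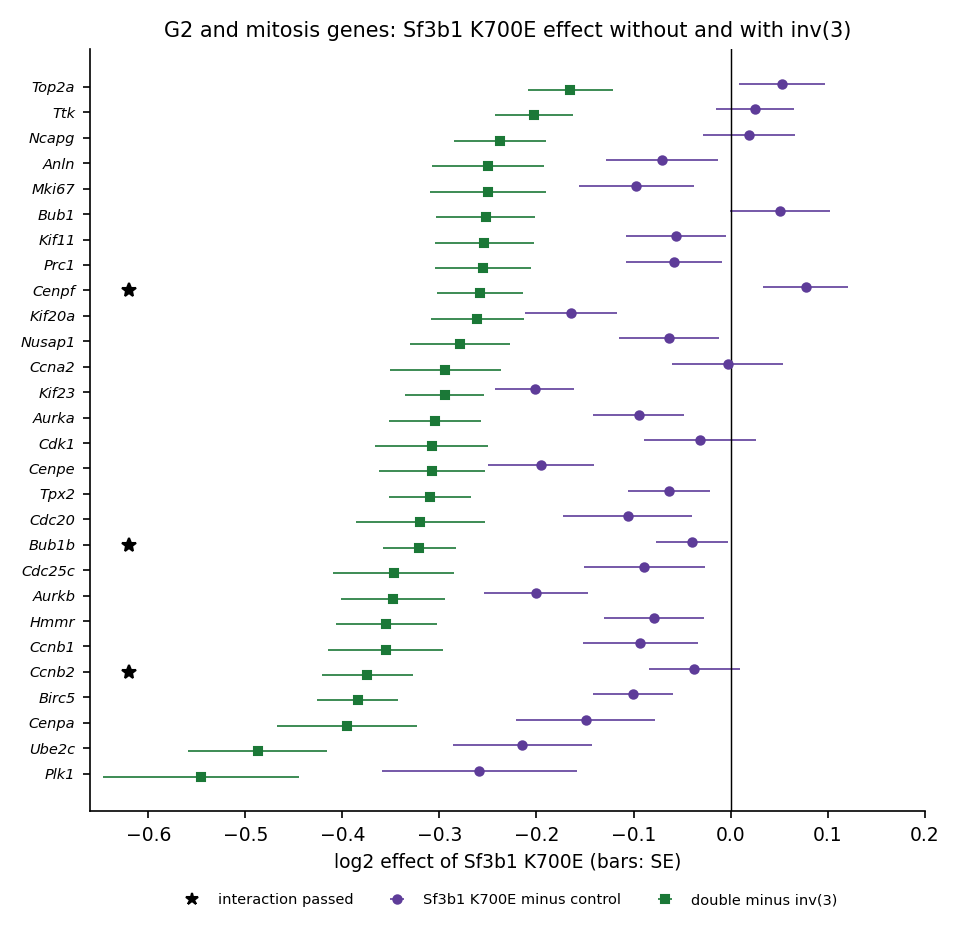
For each of 28 G2 and mitosis genes the log2 effect of Sf3b1 K700E is drawn without inv(3) (purple circles) and with inv(3) (green squares), with bars for the SE and a star where the interaction passed. All 28 effects with inv(3) lie below 0 and to the left of the effect without it, and 3 genes carry a star.

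Lbh and Efcab7 were lowest in all 3 double libraries. Lbh, a transcription cofactor, measured 49.9, 50.7 and 52.9 CPM in control, 43.5, 42.2 and 42.3 with inv(3), 48.1, 49.1 and 48.7 in Sf3b1 K700E and 32.1, 32.2 and 32.3 in double libraries. The inv(3) libraries were lower than control and the double libraries lowest, with a departure of −0.33 ± 0.05 log2 (SE, edgeR adjusted p = 0.0168). Efcab7, a ciliary protein of Hedgehog signalling, averaged 7.89 ± 0.236 CPM (SD) in control, 7.64 ± 0.366 with inv(3), 7.34 ± 0.222 in Sf3b1 K700E and 4.51 ± 0.152 in double libraries. Its departure was −0.65 ± 0.11 log2 (SE, edgeR adjusted p = 0.0205), and neither single-allele effect passed.

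Above the sum, Capn11 stood out. It encodes a calpain, a calcium-dependent protease best known from testis, and lies at chr17:45630191-45659709. It measured 3.12, 2.42 and 2.5 CPM in control, 0.0263, 0 and 0 with inv(3), 0.567, 1.14 and 1.5 in Sf3b1 K700E and 10.7, 6.52 and 10 in double libraries. These levels rest on 633, 2, 270 and 2154 counts summed over the 3 libraries of each group. Each allele alone lowered Capn11 and the double libraries were the highest of all. No fold is given for the departure, since the inv(3) group held 2 counts, and its adjusted p was 1.045e-05 (edgeR).

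Camk2b and Eps8l1 were lowered by Sf3b1 K700E alone and raised by it on the inv(3) background. Camk2b (chr11:5969629-6066357), the beta subunit of calcium/calmodulin-dependent kinase II, measured 6.29, 3.88 and 4.15 CPM in control, 3.81, 6.59 and 3.46 with inv(3), 1.29, 1.9 and 1.92 in Sf3b1 K700E and 12.7, 12.9 and 10.5 in double libraries. The double libraries were the highest 3 and the Sf3b1 K700E libraries the lowest 3. The departure was 2.86 ± 0.38 log2 (SE, edgeR adjusted p = 0.00582) over a summed level of 1.65 CPM. Eps8l1 (chr7:4460638-4480487), an actin regulator related to EPS8, measured 11.4, 11 and 8.5 CPM in control, 13.5, 12.8 and 13.8 with inv(3), 3.73, 4.21 and 5.05 in Sf3b1 K700E and 27.2, 17.1 and 22.6 in double libraries. Its 4 groups did not overlap, and the departure was 1.99 ± 0.24 log2 (SE, edgeR adjusted p = 0.00302). Both calls held in each of the 12 fits that left out a library and missed the limit with the macrophage covariate, at 2.61 log2 and 1.88 log2.

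Other genes were high in the double libraries and had no single-allele effect that passed. Met (chr6:17463349-17573980), the receptor for hepatocyte growth factor, measured 42.9, 39.1 and 42.4 CPM in control, 48.7, 39.7 and 46 with inv(3), 40.6, 41.8 and 40.4 in Sf3b1 K700E and 82.1, 68.9 and 88.6 in double libraries. The 9 libraries of the other groups overlapped and all 3 double libraries lay above them. The departure was 0.85 ± 0.13 log2 (SE, edgeR adjusted p = 0.0143). Exoc6b, a subunit of the exocyst that tethers vesicles, averaged 19.2 ± 0.832 CPM (SD) in control, 20.3 ± 1.38 with inv(3), 19.6 ± 0.743 in Sf3b1 K700E and 29.5 ± 0.659 in double libraries, a departure of 0.51 ± 0.09 log2 (SE, edgeR adjusted p = 0.0212). Zfp69, a KRAB zinc-finger protein, averaged 2.44 ± 0.317, 1.84 ± 0.0597, 3 ± 0.731 and 7.69 ± 1.52 CPM (SD) in the same order, a departure of 1.77 ± 0.27 log2 (SE, edgeR adjusted p = 0.0133). Zfp69 and Capn11 were the 2 genes above the sum that passed in each of the 21 fits on the log2 scale that tested them; the fit with a mean of at least 5 CPM did not.

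A further set was raised by inv(3) and raised again when Sf3b1 K700E was added, although Sf3b1 K700E alone did not raise it. Atxn1, a transcriptional repressor that works with Capicua, averaged 31 ± 0.583 CPM (SD) in control, 39.4 ± 2.31 with inv(3), 29.8 ± 1.39 in Sf3b1 K700E and 57.5 ± 3.1 in double libraries. Its departure was 0.60 ± 0.08 log2 (SE, edgeR adjusted p = 0.00582). Ggt1, gamma-glutamyltransferase of glutathione breakdown, stood at 0.308 ± 0.0226, 0.695 ± 0.0466, 0.224 ± 0.0676 and 2.86 ± 0.126 CPM (SD) in the same order, a departure of 2.50 ± 0.29 log2 (SE, edgeR adjusted p = 0.002). The membrane protein gene Ms4a4b (1.44 ± 0.23 log2, SE), the endoribonuclease gene Endou (1.06 ± 0.17) and Clec2i (0.91 ± 0.15), which encodes a C-type lectin ligand of natural killer cell receptors, had the same order of means. Their adjusted p-values lay between 0.0181 and 0.0226 (edgeR). Fads3 (1.86 ± 0.29 log2, SE), of the fatty acid desaturase family, was instead lowered by inv(3) and higher than control in double libraries. Cdk5rap1, which modifies mitochondrial transfer RNAs, departed by 1.02 ± 0.21 log2 (SE, edgeR adjusted p = 0.0461), and the call ended in 10 of the 12 fits that left out a library and under the 5 CPM minimum.

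Colgalt1, a collagen galactosyltransferase, was the 1 gene of the 104 in which the Sf3b1 K700E group stood apart as low from 3 groups that lay close together. It measured 187, 186 and 188 CPM in control, 196, 199 and 197 with inv(3), 147, 159 and 160 with Sf3b1 K700E and 199, 202 and 207 with both alleles, a departure of 0.30 ± 0.06 log2 (SE, edgeR adjusted p = 0.0324). The Sf3b1 K700E libraries lay below all others. Its effect on the inv(3) background was 0.04 log2 and did not pass.

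The list of interferon-response genes gave 1 departure in 40. Gbp2, an interferon-induced guanylate-binding protein, averaged 14.4 ± 1.54 CPM (SD) in control, 12.8 ± 1.61 with inv(3), 17.7 ± 1.32 in Sf3b1 K700E and 26.1 ± 1.16 in double libraries. The departure was 0.72 ± 0.14 log2 (SE, edgeR adjusted p = 0.0439), and the call ended in 10 of the 12 fits that left out a library. The list does not hold every interferon-induced gene. Outside it Ly6e (0.59 log2), Uba7 (0.49 log2) and Samhd1 (0.34 log2), named after their values were seen, also passed above the sum. Their calls ended in 7, 8 and 10 of the 12 fits that left out a library. The list's median was 0.08 log2. Of its 40 genes 20 were held within 0.5 log2 units of the sum, against 59.1% of all genes. Sf3b1 K700E raised 3 of the 40 without inv(3) and 18 with it, where it raised 3.97% and 13.2% of all genes. Among the 40 the difference itself passed for Gbp2 only. Oas2, an antiviral sensor of double-stranded RNA, was among the clearest cases of a sum that held. It stood at 9.03 ± 0.794, 29.5 ± 2.19, 12.3 ± 1.85 and 39.7 ± 2.56 CPM (SD) in control, inv(3), Sf3b1 K700E and double libraries, where the sum was 40.1 CPM (−0.01 ± 0.15 log2, SE).

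Other genes moved by both alleles also met the sum. Among the 700 genes that passed in both single-allele comparisons, 435 were held within 0.5 log2 units of it and 19 departed. Tal1, a transcription factor of stem and erythroid cells, averaged 72.3 ± 2.53 CPM (SD) in control, 25.9 ± 1.98 with inv(3), 99.1 ± 7.22 in Sf3b1 K700E and 35.5 ± 7.2 in double libraries, equal to the 35.5 CPM of the sum. The 95% interval of its departure ran from −0.38 to 0.37 log2. Cd68, a lysosomal protein of myeloid cells that the macrophage list does not hold, averaged 24.9 ± 1.58, 74.2 ± 5.81, 35.3 ± 6.11 and 101 ± 6.93 CPM (SD) in the same order against a sum of 105 CPM. Cracr2b averaged 19 ± 0.904, 43.6 ± 6.34, 11.1 ± 0.882 and 28.1 ± 2.14 CPM (SD), with the effects of the alleles opposed and a departure of 0.15 ± 0.14 log2 (SE).

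The effect of Sf3b1 K700E was compared on the 2 backgrounds, which share no library. It passed in 1185 genes without inv(3) and 2967 with it, and 570 passed in both, which is 48.1% of the first set and 19.2% of the second. Of these 554 had the same sign and 16 the opposite sign (2.81%). Over the 10562 genes with a mean of at least 2 CPM the correlation of the 2 effects was r = 0.43 (Spearman's rho 0.56), a description across genes that are not independent. None of the 554 with the same sign departed from the sum, and 13 of the 16 with opposite signs did. The interaction is the difference of these 2 effects, so this split largely follows from its definition. Of the genes above the sum, 35 of 50 passed on the inv(3) background alone, 8 without inv(3) alone and 7 on both with opposite signs. Below it the counts were 30, 18 and 6 of 54, and over all 13252 tested genes 2397, 615 and 16. These classes rest on the same 2 effects as the interaction.

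Stem cell and early progenitor genes had no departure that passed among 30 tested. At an unadjusted p under 0.05 the count was 12 above the sum and 0 below it, against 1293 and 860 of all 13252 genes, the median was 0.23 log2, and DESeq2 called 4 above it. Sf3b1 K700E raised 4 of the 30 without inv(3), where it raised 3.97% of all genes, and 19 with it, where it raised 13.2%, and the test of the difference did not pass for any of them. Ly6a, the Sca-1 antigen of mouse stem cells, came closest. It measured 3.39, 3.39 and 3.6 CPM in control, 14, 5.24 and 8.31 with inv(3), 5.57, 7.02 and 4.58 in Sf3b1 K700E and 47.4, 51.7 and 62.3 in double libraries. All double libraries lay far above the other 9, the inv(3) libraries spread widely, and the departure of 1.82 ± 0.41 log2 (SE, edgeR adjusted p = 0.067) missed the limit. It passed with the macrophage covariate (2.75 log2, edgeR adjusted p = 0.0369). Sox4 (0.79 log2, edgeR adjusted p = 0.134) and Satb1 (0.69 log2, edgeR adjusted p = 0.142), both transcription factors, did not pass.

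The 12 Hoxa and partner genes had a median of 0.69 log2 with none that passed. None of the 12 was held within 0.5 log2 units of the sum, where 59.1% of all genes were. Meis1, the Hox cofactor, averaged 34.4 ± 4.64 CPM (SD) in control, 7.89 ± 2.85 with inv(3), 50.2 ± 7.99 in Sf3b1 K700E and 22 ± 5.92 in double libraries (0.93 ± 0.36 log2, SE, edgeR adjusted p = 0.229). B lymphoid genes had a median of −1.38 log2, 10 of 18 at an unadjusted p under 0.05 below the sum, and none that passed. Their summed level was 174.4 to 270.2 CPM in Sf3b1 K700E and 62.95 to 103.6 CPM in double libraries, so they were highest in the libraries with the most macrophage RNA. The B cell factor Ebf1 stood below 1 CPM in every group. Eosinophil genes had a median of −0.28 log2 with none that passed. Their receptor Ccr3 had the largest value, with means of 15.9 ± 6.65 CPM (SD) in Sf3b1 K700E and 0.852 ± 0.309 in double libraries (−2.81 ± 0.64 log2, SE, edgeR adjusted p = 0.0731).

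Mecom, Gata2 and Rpn1, named for the inv(3) rearrangement of leukemia, and Sf3b1 did not pass the test for a departure. The construction of the inv(3) allele is not given, so whether it acts on these mouse genes is not known here. Mecom averaged 6.15 ± 0.583 CPM (SD) in control, 4.58 ± 1.14 with inv(3), 8.48 ± 2.18 in Sf3b1 K700E and 10.2 ± 1.12 in double libraries, with a departure of 0.69 ± 0.28 log2 (SE, edgeR adjusted p = 0.244). The 95% interval of this departure ran from 0.08 to 1.29 log2, so Mecom was not held near the sum. Sf3b1 K700E raised Mecom on the inv(3) background (1.15 log2, edgeR adjusted p = 0.0031). Since Mecom did not pass between inv(3) and control (−0.42 log2, edgeR adjusted p = 0.112), its level does not check the inv(3) label. Gata2 departed by 0.22 ± 0.24 log2 (SE, edgeR adjusted p = 0.714). The values for Sf3b1 (0.14 log2, edgeR adjusted p = 0.422) and Rpn1, which lies beside the GATA2 enhancer, (−0.03 log2, edgeR adjusted p = 0.869) did not pass. A point mutation need not change a gene's total count, so the level of Sf3b1 checks no label either.

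Most genes of splicing and its surveillance were held near the sum. None of 40 splicing factors, 22 known targets of SF3B1 mis-splicing and 17 genes of nonsense-mediated decay passed. With 0.785% of all genes passing, lists of this size would hold few or none. Held within 0.5 log2 units of the sum were 36, 20 and 15 members of these lists, in that order. The share was 59.1% over all genes and 74.1% over those with a mean of at least 2 CPM. The lists of oxidative phosphorylation (30 of 30 held within the bound), MYC targets and ribosome biogenesis (26 of 27), cholesterol synthesis (17 of 19) and glycolysis (16 of 19) had none that passed. Counts of a gene's total RNA do not show which splice sites were used. Of the 625 tested genes in the 31 lists 14 departed, where 104 of all 13252 tested genes (0.785%) did.

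**Figure D4:**
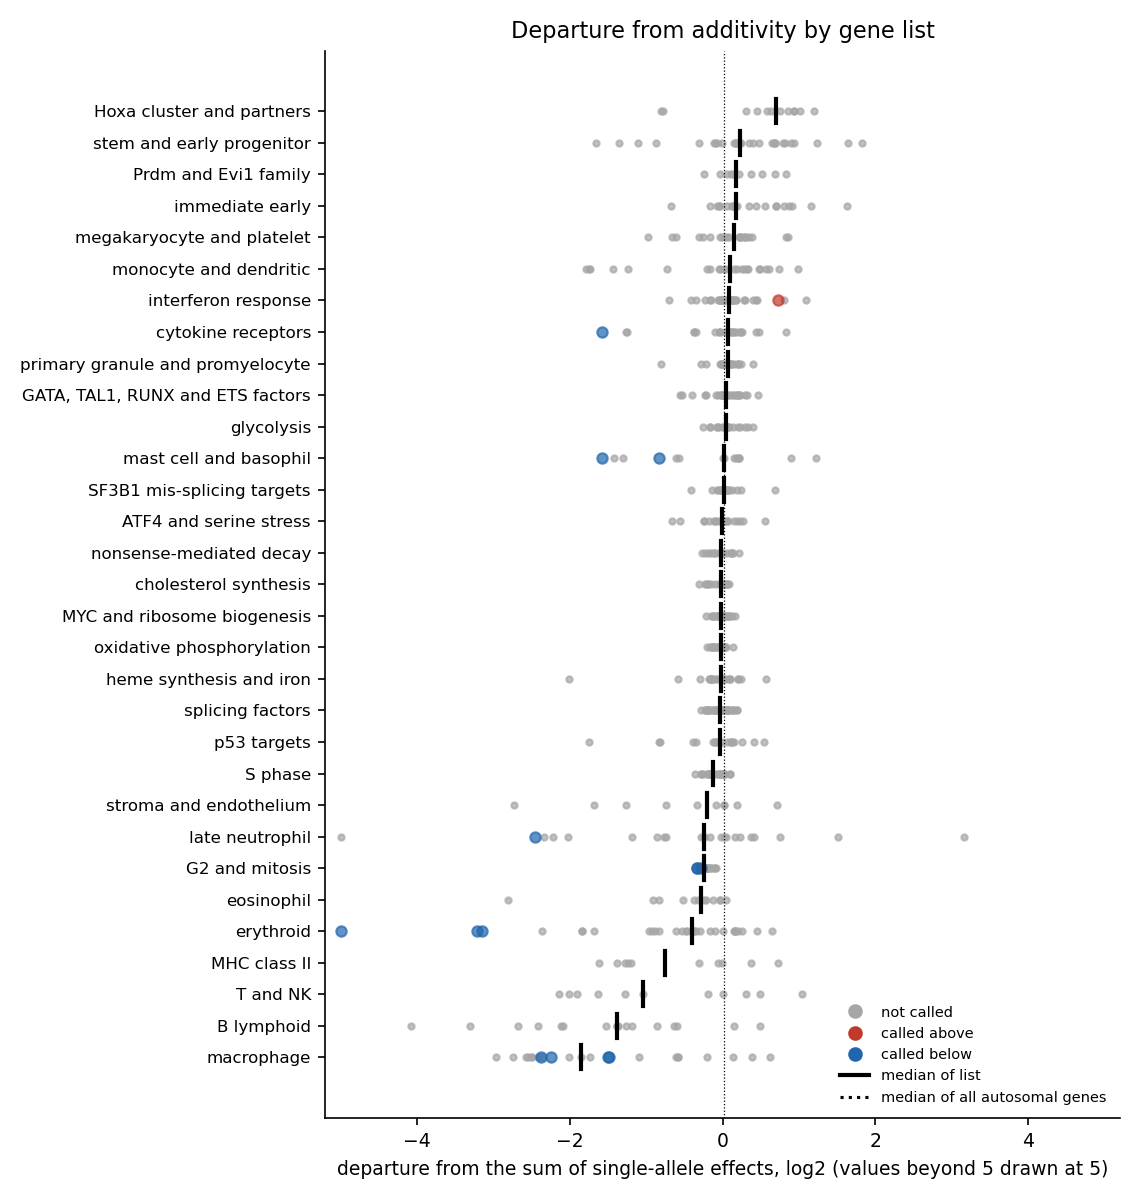
Each row is a gene list and each point the departure of 1 tested member in log2, red where called above the sum and blue where called below it, with a bar at the list's median and a dotted line at the median of all autosomal genes. Values beyond 5 are drawn at 5. Macrophage and B lymphoid genes have the lowest medians, −1.86 and −1.38, and the Hoxa list the highest, 0.69.

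The 104 genes were spread over the autosomes. The share that departed was highest on chromosome 17 (11 of 743, 1.48%) and chromosome 18 (5 of 345, 1.45%), and no gene of 432 departed on chromosome 16.

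The number of calls depended on single libraries more than the sign of any departure did. The calls that held with each library left out in turn were 18, 8 above the sum and 10 below it. Among them were Hba-a1, Adgre1, Il1rl1, Wdfy1, Samd14 and Dynlt1b below the sum and Capn11, Camk2b, Eps8l1, Ggt1, Zfp69 and Atxn1 above it. Samd14, an erythroid adaptor protein named after its values were seen, averaged 16.3 ± 2.68 CPM (SD) in control, 1.77 ± 0.11 with inv(3), 23 ± 4.13 in Sf3b1 K700E and 0.898 ± 0.0668 in double libraries (−1.47 ± 0.22 log2, SE, edgeR adjusted p = 0.0129), the same order as Il1rl1. On the linear CPM scale Samd14 did not pass (limma adjusted p = 0.196). With 1 library left out, the call ended in 10 of the 12 fits for Spc25, 8 for Hpgd and Colgalt1, 7 for Lpl, Grap2, Dlgap5 and Clec2i, 6 for Mrc1 and Ska1, 5 for Efcab7, Exoc6b, Ms4a4b and Endou, 4 for Fgr, 3 for Lbh and Fads3, and 1 for Kcnj10 and Met. Without double replicate 2 the count was 186 above and 120 below the sum, without double replicate 3 it was 9 and 14, and without control replicate 2 it was 12 and 10.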

How the data were processed

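Poly(A)-selected, unstranded libraries were prepared per the labels' protocols. Per the file headers, the authors deposited RSEM tables with expected counts per gene. Per the submitters' processing notes, bcl2fastq and the mm10 build were used. The sources used here do not name an aligner. Effective length, another deposited column, served 1 alternative. Expected counts were rounded, filtered with filterByExpr by group and scaled by TMM. They were fitted in 1 robust quasi-likelihood model over 4 groups and 12 libraries (edgeR 4.0.16, R 4.3.3), which gave the interaction with two-sided Benjamini-Hochberg adjusted p-values over 13755 genes. Standard errors come from the F statistic. The deposited symbols were matched to a RefSeq GRCm38.p6 table by symbol (23194), transcript (1124) or synonym (44), and 13 tested genes had no chromosome and were left out.

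Members and gene lists were chosen with earlier results of these data known. Named genes are the allele genes, the 10 largest departures each way with a mean of at least 2 CPM, up to 3 per list by smallest p, up to 3 per class of the Sf3b1 K700E effect, up to 2 per group standing apart, and 6 near-additive genes; predicted genes and pseudogenes were not named. The code was tested on data with known answers before use. Alternatives used DESeq2 1.42.0 and limma 3.58.1.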

Additional observations from a re-analysis of the deposited data

Results flagged for a closer look

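The effect of Sf3b1 K700E differed between backgrounds, by the interaction test itself, in 50 genes above the sum and 54 below it. Below the sum the difference (effect with inv(3) minus effect without it, log2) was −4.28 for Cbr2, −3.22 for Hbb-b1, −3.15 for Hba-a1, −2.81 for Kcnj10, −2.45 for Camp, −2.38 for Sdc3, −2.24 for Mrc1, −1.71 for Adgre4, −1.71 for Abcg3, −1.69 for Grap2, −1.60 for Fgr, −1.57 for Il1rl1, −1.51 for Adgre1 and −1.49 for Lpl. Smaller ones were −0.84 for Hdc, −0.79 for Dynlt1b, −0.77 for Wdfy1, −0.65 for Efcab7, −0.34 for Ccnb2, −0.34 for Cenpf, −0.33 for Lbh, −0.30 for Dlgap5 and −0.28 for Bub1b.

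Above the sum it was 0.30 for Colgalt1, 0.51 for Exoc6b, 0.60 for Atxn1, 0.72 for Gbp2, 0.85 for Met, 0.91 for Clec2i, 1.02 for Cdk5rap1, 1.06 for Endou, 1.44 for Ms4a4b, 1.77 for Zfp69, 1.86 for Fads3, 1.99 for Eps8l1, 2.50 for Ggt1 and 2.86 for Camk2b. Hba-a2, with 248 counts in the double libraries, and Capn11, with 2154, passed the same test, and each had a group with 2 counts or none.

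Outside the autosomes, 7 of 486 tested X-linked genes passed (1.44%) and all 4 tested Y-linked genes (100%). Xist was above its control level of 23.99 to 39.89 CPM in each Sf3b1 K700E library, the lowest of which held 77.11 CPM.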

How the results depend on the processing

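All 104 departures kept their sign in each alternative that tested them (82 of them at a mean of at least 5 CPM), and 85 passed with both DESeq2 and limma-voom. Counts above and below the sum were 291 and 303 with DESeq2, and 28 above with a mean of at least 5 CPM. They were 6 and 7 with the macrophage level as a covariate, and 95 above with effects added on the linear CPM scale, where 31 and 30 of the genes were shared with the log2 fit. The share of calls above the sum was 48.1%, 34.6% at 5 CPM and 59.7% on the linear scale. RLE scaling, no filter, limma-voom, the effective-length offset, autosomal genes alone and abundant genes left out of scaling gave counts within 1.5 times. With each library left out in turn the counts ran from 9 to 186 above and from 10 to 120 below. Without control replicate 1 they were 15 and 16, without control replicate 3 9 and 20, and without double replicate 1 9 and 16. Without inv(3) replicate 1 they were 105 and 95, without inv(3) replicate 3 29 and 31, and without Sf3b1 K700E replicates 1 and 2 27 and 30, and 14 and 27, with 24 above without replicate 3. The cause was not tested. With the replicate number as a block the counts were 24 and 26, of which 23 and 26 were shared. Same-numbered libraries correlated between −0.61 and 0.56 in their deviations from the group means, so the numbers do not pair the libraries. Of the 54 genes below the sum 9 had a mean under 2 CPM, where counting noise limits the interaction.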
